A study of Homo sapiens with 19 samples.

Results

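The 10 genes described here carry bile acids across liver and gut cells or respond to the bile acid receptor FXR. They were chosen by name and matched by Ensembl identifier, and make up 10 of the 32732 gene identifiers that all orbital shaker matrices hold. The 5 hepatic members are SLC10A1, ABCB11, ABCB4, ABCC2 and ABCC3, and the 5 ileal members are SLC10A2, SLC51A, SLC51B, FGF19 and FABP6. All 10 were listed in every matrix.

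The organoids were human liver organoids, wild type, differentiated from W01, an established human pluripotent stem cell line, and all groups share that 1 line. Single cells were profiled with 3′ droplet chemistry, in which each unique molecular identifier (UMI) counts 1 captured RNA molecule. Untreated organoids from plates of ultra-low attachment (ULA) gave 3 libraries on day 21 and 2 on day 34. Those grown on an orbital shaker (OS) were all taken on day 25, with 2 libraries in each of 7 groups. These were untreated, TGFB1 (transforming growth factor β1, 10 ng/ml), PA (500 µM), OA (500 µM) and 1 control group for each of TGFB1, PA and OA. PA and OA are given here as the labels abbreviate them. The labels give 20 days of culture followed by 5 days of treatment for TGFB1 and PA, and name OA in the sample labels alone. No label says whether replicates were separate differentiations, so p-values measure the spread between these libraries only.

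Hepatocytes make bile acids from cholesterol, and the pumps ABCB11 and ABCC2 move them and their conjugates into bile, while ABCB4 flips the phospholipid that protects the bile duct from them. In the ileum, SLC10A2 takes bile acids up, FABP6 binds them inside the enterocyte, and SLC51A with SLC51B exports them toward the portal blood. SLC10A1 returns them to the hepatocyte, and ABCC3 and SLC51A-SLC51B provide export from the hepatocyte into blood. FXR, encoded by NR1H4, is a nuclear receptor for bile acids that pairs with RXRA on DNA. Known FXR targets include ABCB11, SLC51A, SLC51B, FABP6, NR0B2 (the repressor SHP) and FGF19, a gut hormone that lowers bile acid synthesis through FGFR4 and KLB on hepatocytes.

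The classical FXR element is an inverted repeat of 2 half-sites spaced by 1 base. The RefSeq promoter table (GRCh38.p14) held an entry for 7 of the 10 members, and each entry, 250 bases before to 50 after the listed start, was searched on both strands for AGGTCA and TGACCT with any 1 base between them. None of the 7 held a copy with 1 mismatch or fewer, which 0.0598% of 35116 promoters did. ABCB11, SLC51B and SLC10A1 held a copy with 2 mismatches, against 1.12% of all promoters. FABP6 and SLC10A2 held one with 3 mismatches, which 10.6% of all promoters held as well. SLC51A and ABCC2, the other two members with an entry, held no copy with fewer than 4 and 5 mismatches. Of the 6 members with an entry that rose with OA 4 thus held a copy with 3 mismatches or fewer and 2 did not, while SLC10A1, which stayed near 0, held one with 2. The 250 upstream bases are shown for the 5 genes with such a copy, to let the copies be compared. Each is 5′ to 3′ on the gene's strand, with the copy that has the fewest mismatches to this motif in capitals. Such a copy need not be a site that FXR binds, and stretches with more mismatches are not marked.
ABCB11, chr2:169031325-169031574, minus strand: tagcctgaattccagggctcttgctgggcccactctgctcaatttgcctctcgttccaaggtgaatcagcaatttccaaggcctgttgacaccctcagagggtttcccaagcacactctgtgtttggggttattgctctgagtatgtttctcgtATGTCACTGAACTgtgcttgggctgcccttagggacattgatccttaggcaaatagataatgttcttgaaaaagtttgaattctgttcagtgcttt
SLC51B, chr15:65045137-65045386, plus strand: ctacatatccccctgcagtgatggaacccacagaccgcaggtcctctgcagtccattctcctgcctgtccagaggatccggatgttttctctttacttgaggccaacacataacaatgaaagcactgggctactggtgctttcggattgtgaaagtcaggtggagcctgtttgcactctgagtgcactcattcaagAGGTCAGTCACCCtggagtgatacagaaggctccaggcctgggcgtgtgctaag
SLC10A1, chr14:69797242-69797491, minus strand: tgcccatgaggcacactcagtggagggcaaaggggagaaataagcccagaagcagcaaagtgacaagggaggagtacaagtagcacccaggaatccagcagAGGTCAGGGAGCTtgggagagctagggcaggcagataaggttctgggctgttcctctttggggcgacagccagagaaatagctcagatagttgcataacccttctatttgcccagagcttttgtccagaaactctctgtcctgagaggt
FABP6, chr5:160229256-160229505, plus strand: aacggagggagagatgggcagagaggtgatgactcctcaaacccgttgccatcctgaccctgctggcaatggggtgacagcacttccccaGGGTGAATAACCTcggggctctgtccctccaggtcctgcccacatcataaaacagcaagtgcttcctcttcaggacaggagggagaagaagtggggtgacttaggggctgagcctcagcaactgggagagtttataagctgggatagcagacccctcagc
SLC10A2, chr13:103066418-103066667, minus strand: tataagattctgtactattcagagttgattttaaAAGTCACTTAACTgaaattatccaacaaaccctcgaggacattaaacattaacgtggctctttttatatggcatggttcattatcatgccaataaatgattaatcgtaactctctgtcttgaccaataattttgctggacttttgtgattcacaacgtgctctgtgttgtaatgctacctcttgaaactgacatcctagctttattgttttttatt

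The copies start at position -96 for ABCB11, -54 for SLC51B, -149 for SLC10A1, -160 for FABP6 and -216 for SLC10A2, counted from the listed start, where the last base before it is -1. The single half-site AGGTCA, searched on both strands and without regard to overlap with the longer motif, was in SLC51B and SLC10A1 and in 13.8% of all promoters. The listed starts of FABP6 and SLC51A lie within the longer spans of these genes in GENCODE v44, so other starts of both were not searched. These matches describe letters in the window, and binding was not measured.

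After barcodes with under 500 genes or over 20% mitochondrial counts had been removed, 120240 cells remained. UMIs were summed per library and given as CPM, the UMIs of a gene per 1000000 UMIs of its library. Libraries held 6880807 to 91184130 UMIs in kept cells. PA control replicate 1 was the shallowest, and the median UMIs per cell ran from 1310 to 14304.5 over libraries. No pair of libraries shared more than 0.581% of the smaller one's barcodes. Gene lists also differed by experiment: 58721 genes for ULA, 33538 for TGFB1 and PA, and 36601 for OA with the untreated libraries, so levels set across experiments were not tested. All 12 hepatocyte markers had UMIs in every group, with summed levels of 65.8 CPM (ULA day 34) to 22950 CPM (PA). In these sums, fewer cells of a type and less RNA per cell cannot be told apart. Reads of SLC51A, SLC51B, ABCC2 and FABP6 could be shared with genes annotated on the other strand (PCYT1A, RASL12, NANOGP6 and FABP6-AS1 among them), since the sources used here do not give the strand setting of the count.

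Among the hepatic members, SLC10A1 was close to absent, with 0 to 2 UMIs in every one of the 19 libraries. That is at or below the 3 UMIs taken as the limit of detection per library, and no fold is given for it. ABCB4 had 2 to 45 UMIs per library. Its group means lay between 0.264 ± 0.00360 CPM (SD, n = 3; ULA day 21) and 0.625 ± 0.334 CPM (SD, n = 2; OA), and each group overlapped the next in the order. ABCB11 was under 1.25 CPM in all 17 libraries outside OA. OA organoids stood apart from them at 7.05 and 4.94 CPM in replicates 1 and 2, and below OA each group in the order overlapped the next. ABCC2 was highest with OA, at 15.8 and 8.67 CPM. Untreated OS organoids followed at 4.25 and 7.39 CPM and OA controls at 2.72 and 1.92 CPM, and the libraries of these 3 groups did not overlap. ABCC2 was lowest with TGFB1, at 0.0681 and 0.0765 CPM. ABCC3 was detected in every library, from 1.44 CPM in ULA day 34 replicate 1 to 73.5 CPM in OA replicate 2, and the 2 OA libraries lay above all others.

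The ileal members spanned a wider range. SLC10A2 had 0 UMIs in all 6 libraries of TGFB1, its control and the PA control, and 1 to 24 in the other libraries outside OA that held any. OA replicates 1 and 2 held 184 and 69 UMIs. SLC51A was highest with OA at 46.5 and 45.3 CPM, followed by ULA day 21 at 16.2, 13.8 and 15.1 CPM, and the other groups had means of 0.364 to 6.55 CPM. SLC51B followed the same order at the top, with 24.8 and 11.6 CPM for OA and 7.58, 6.01 and 8.46 CPM for ULA day 21. FGF19 had another order: it was highest in ULA day 21 at 1.94, 2.78 and 1.38 CPM, and no OS library exceeded 0.506 CPM. FABP6 was highest with OA at 1301 and 72.1 CPM, and the next library was PA replicate 2 at 5.15 CPM.

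**Figure D1:**
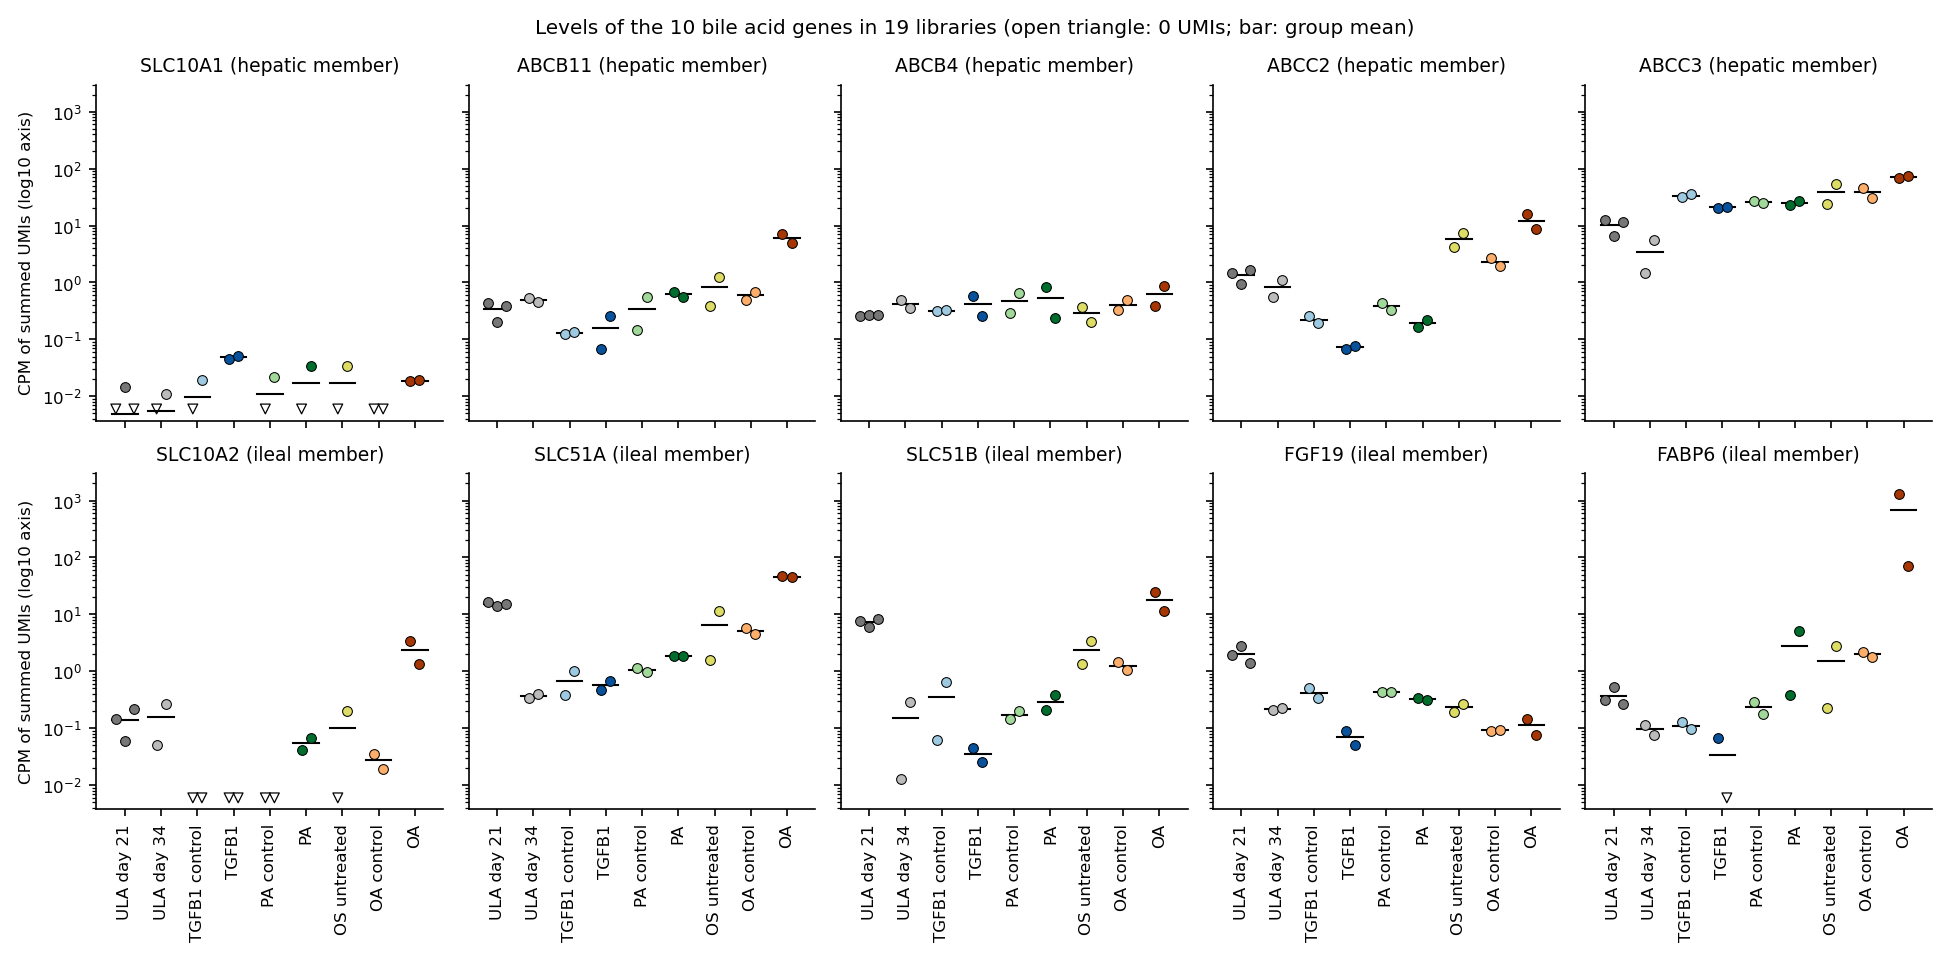
CPM of each member on a log10 axis for the 19 libraries by group, with hepatic members above and ileal members below. Points are libraries, bars are group means and open triangles are libraries with 0 UMIs. OA libraries are the highest for ABCB11, ABCC2, ABCC3, SLC10A2, SLC51A, SLC51B and FABP6, FGF19 is highest in ULA day 21, and SLC10A1 stays at 2 UMIs or fewer in all libraries.

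Treatment with OA raised 7 of the 9 members that passed the filter on low counts (edgeR quasi-likelihood test, Benjamini-Hochberg adjusted p under 0.05 over 19366 genes). They were 3 of 4 tested hepatic members and 4 of 5 ileal ones. SLC10A2, 1 of these 4, passed the filter only through its OA libraries, where it is high, so its place in both counts was set by that rise. Of all genes tested, 43.3% were called in either direction and 21.7% were called higher. The median log2 fold change was 1.98 over the 4 tested hepatic members and 4.18 over the 5 ileal members, beside -0.0838 over all genes tested. The ileal median includes SLC10A2, so it too depends on that filter. Under scaling by total counts the median of all genes moved to -0.425 and the split of higher and lower genes from 4197 and 4181 to 2628 and 5952, with 7 members called.

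FABP6 differed most between conditions and also between the 2 OA libraries. OA controls held 123 and 95 UMIs of FABP6 (2.20 and 1.80 CPM), and OA libraries held 70369 and 3769 (1301 and 72.1 CPM). Both OA libraries lay above both controls, and the first was far above the second. The log2 fold change was 8.76 ± 1.49 (SE; adjusted p = 4.62e-04, edgeR), and 5.48 without OA replicate 1.

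SLC10A2, the ileal uptake carrier, had 2 and 1 UMIs in the OA controls and 184 and 69 with OA. The ratio of levels was 86.1, with a counting interval of 29.1 to 420.2 (95%, counting error only), and the control value rests on 3 UMIs in all. The fit gave adjusted p = 6.56e-04 (edgeR), but the gene entered it only through the 2 OA libraries, since the other 12 OS libraries held 0 to 6 UMIs each, and this p is no support of its own.

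Both subunits of the basolateral exporter rose together. SLC51A went from 5.87 and 4.55 CPM in OA controls to 46.5 and 45.3 CPM, a log2 fold change of 3.46 ± 0.65 (SE; adjusted p = 9.71e-04, edgeR). SLC51B went from 1.47 and 1.04 CPM to 24.8 and 11.6 CPM, a log2 fold change of 4.18 ± 0.60 (SE; adjusted p = 1.31e-04, edgeR). In neither gene did the groups overlap, and the 2 OA libraries were closer to each other for SLC51A than for SLC51B.

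Both canalicular pumps that passed the test belong to the hepatic set. ABCB11, the bile salt export pump, went from 0.501 and 0.683 CPM to 7.05 and 4.94 CPM, a log2 fold change of 3.68 ± 0.54 (SE; adjusted p = 1.57e-04, edgeR). ABCC2, which exports conjugated organic anions, went from 2.72 and 1.92 CPM to 15.8 and 8.67 CPM, a log2 fold change of 2.73 ± 0.38 (SE; adjusted p = 9.93e-05, edgeR). The basolateral exporter ABCC3 went from 46.3 and 29.9 CPM to 69.8 and 73.5 CPM, a log2 fold change of 1.23 ± 0.36 (SE; adjusted p = 0.0139, edgeR). The groups did not overlap for any of the 3 genes. ABCC3 missed the threshold without OA control replicate 2 (adjusted p = 0.14) and without OA replicate 2 (adjusted p = 0.0519).

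The 2 members that did not pass were ABCB4, with 18 and 26 UMIs in OA controls and 21 and 45 with OA (log2 fold change 0.95 ± 0.59, SE; adjusted p = 0.214, edgeR), and FGF19, with 5 and 5 against 8 and 4 UMIs (0.61 ± 0.58, SE; adjusted p = 0.423, edgeR). The libraries of the 2 groups overlapped for both genes. FGF19 had only 4 to 8 UMIs in each of these libraries.

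**Figure D2:**
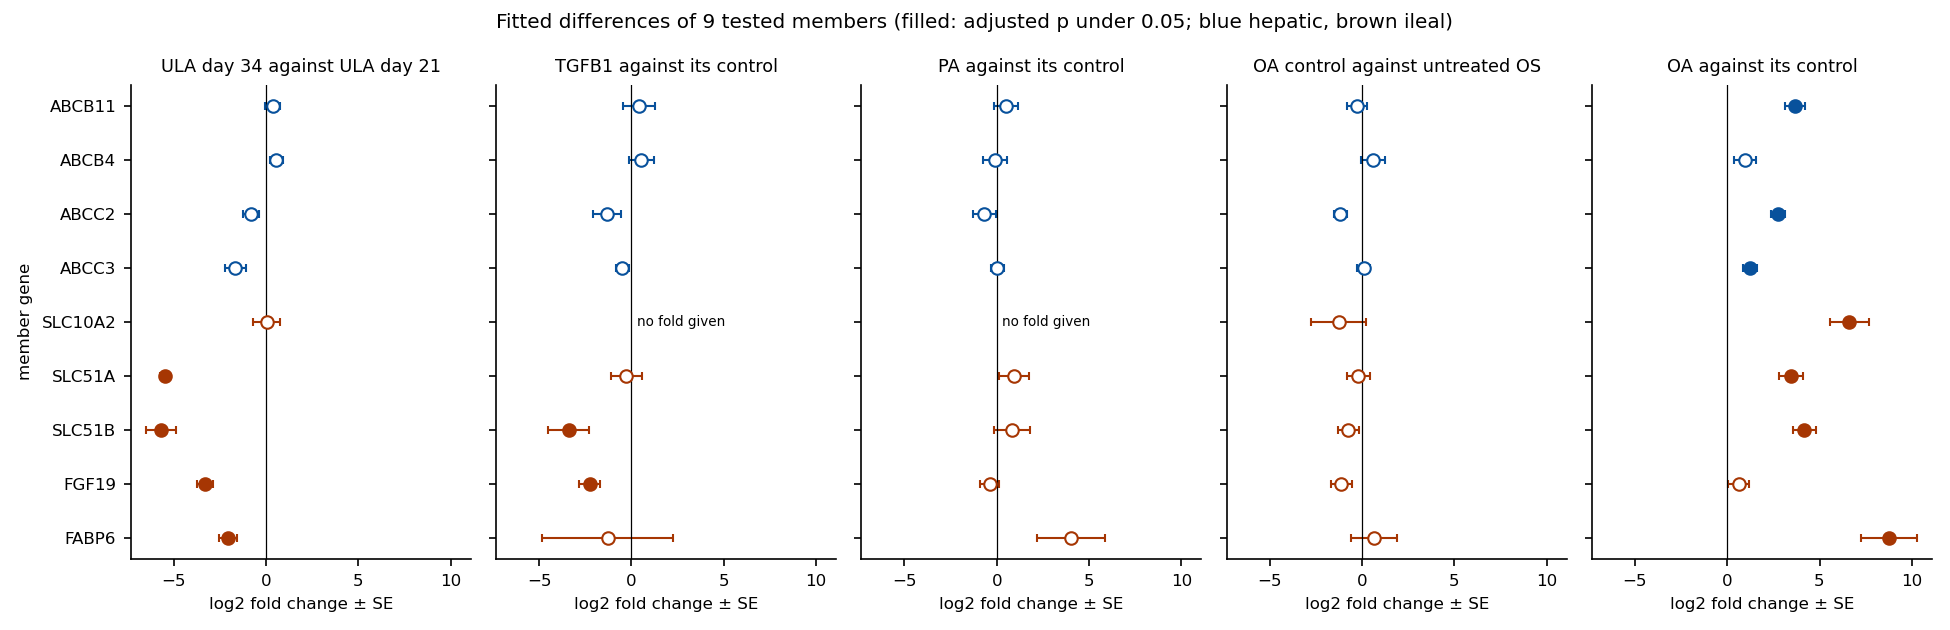
Fitted log2 fold change ± SE of the tested members in the 5 comparisons, 9 in each except 8 for TGFB1 and PA, where SLC10A2 has a group at 0 and no value, with filled points for adjusted p under 0.05, hepatic members in blue and ileal members in brown. With OA 7 points are filled and all lie above 0. On ULA day 34 and with TGFB1 the filled points are ileal members below 0, 4 and 2 of them.

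Markers of other cell types moved with OA as well. The summed level of 14 gut epithelial markers, all with UMIs in both groups, was 448 to 842 CPM in OA controls and 11450 to 13630 CPM with OA. The 12 mesenchymal markers summed to 3190 to 5261 CPM in controls and to 134 to 175 CPM with OA. The 12 hepatocyte markers summed to 8512 to 11410 CPM in controls and 13250 to 14270 CPM with OA. For the 6 cycling markers the sums were 374.5 to 409.5 CPM in controls and 125 to 133 CPM with OA. Limited to clusters with under 2000 CPM of mesenchymal markers, an alternative added after the data had been seen, 6 members were called, beside 6606 of 18191 genes tested, and ABCC3 was not (log2 fold change 0.62, adjusted p = 0.0979).

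To locate the members, cells of the OA experiment were clustered without the members and the pathway genes. In OA libraries most UMIs of the called members lay in 1 cluster, number 15, led by FABP2, APOA4, KRT20, FABP6 and CA4 and called gut epithelial-like from 5 fixed markers (FABP2, APOA4, KRT20, RBP2 and LGALS4) among its 50 leading genes. It held 1754 and 1282 cells in OA replicates 1 and 2, with 74.0% and 63.6% of all UMIs. In controls it held 22 and 8 cells, and in untreated organoids 24 and 17. Levels within it rest on few control cells, and cells, unlike libraries, are no replicates.

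Cluster 15 held 94.8% and 95.4% of the ABCB11 UMIs of OA replicates 1 and 2. For SLC51A it held 97.1% and 95.4%, for SLC51B 91.0% and 95.9%, for SLC10A2 95.1% and 100% and for FABP6 88.4% and 89.3%. ABCC2 had 80.5% and 86.1% there, and ABCC3 81.3% and 68.8%. Each of these shares was above the cluster's share of all UMIs in the same library, least so for ABCC3 in replicate 2. NR1H4 had 85.8% and 80.0% there. Hepatocyte-like cluster 11 held smaller shares of these genes in OA libraries, and it too carried gut markers (RBP2, SI and ANPEP) among its leading genes.

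In OA controls several of these transcripts lay largely in cluster 2, a cycling-like cluster led by LCN15, TRABD2A and MMP1. It held 80.5% and 72.9% of SLC51A, 65.8% and 56.4% of ABCC2 and 68.3% and 54.5% of SLC51B UMIs in replicates 1 and 2, from 1406 and 355 cells with 44.2% and 23.4% of all UMIs of these libraries. For ABCC3 the shares were 66.3% and 51.1%, for ABCB11 57.1% and 47.2%, and the 3 SLC10A2 UMIs of the controls lay outside it. FABP6 was split between cluster 2 (52% and 29.5%) and cluster 11.

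**Figure D3:**
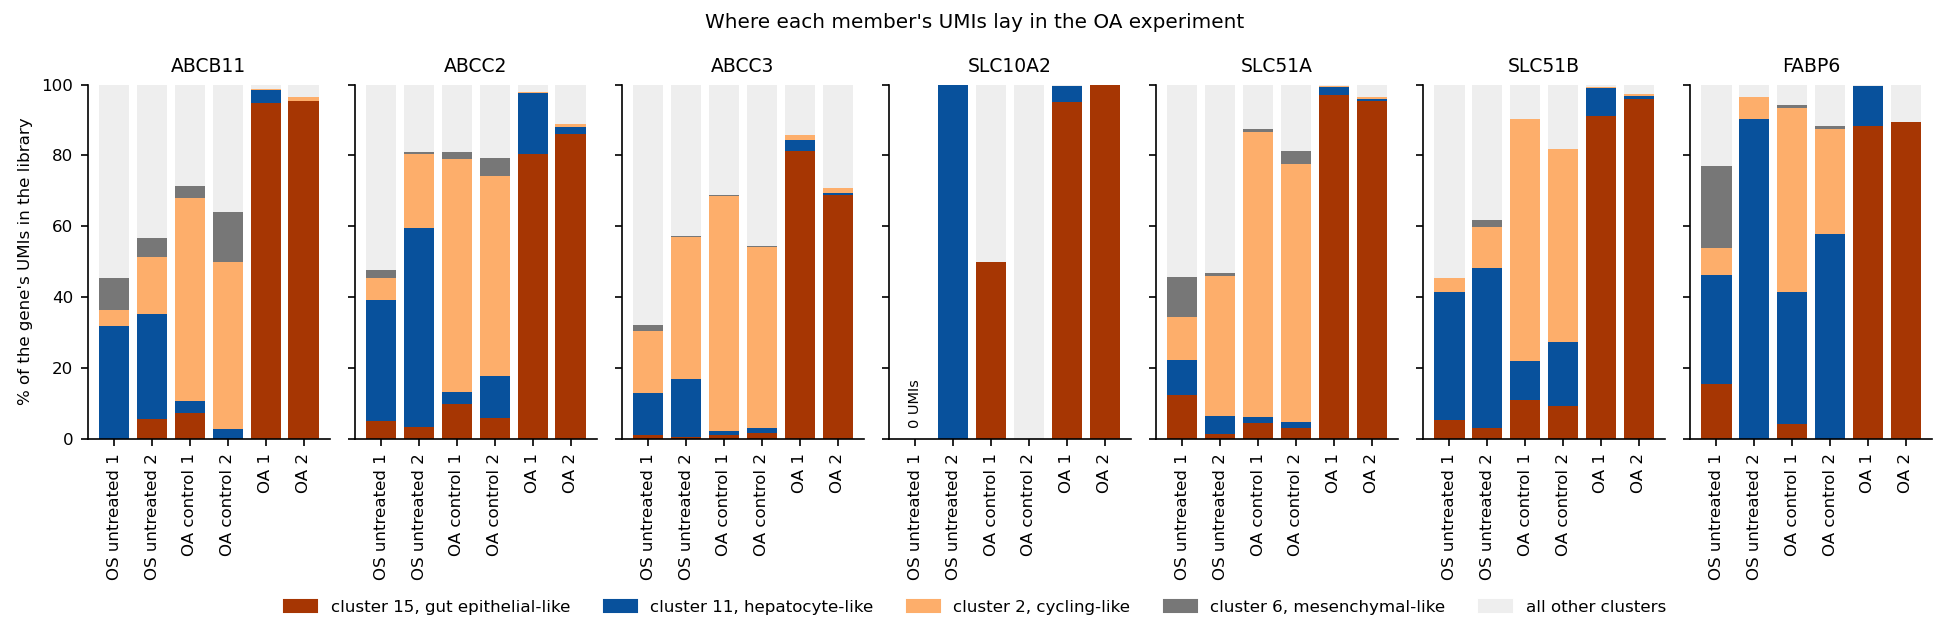
Percentage of each member's UMIs found in 4 named clusters of the OA experiment, per library. In OA libraries the gut epithelial-like cluster 15 holds most UMIs of all 7 genes, while cluster 2 holds most SLC51A and SLC51B UMIs in OA controls. SLC10A2 bars outside OA rest on 6 UMIs or fewer.

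Within cluster 15, levels per UMI in control and OA cells lay closer together than over whole libraries for ABCC3, SLC51A and SLC51B. The cells compared differed in marker make-up: in controls 1 and 2 hepatocyte markers summed to 16055 and 8906 CPM and gut markers to 13306 and 6233 CPM, and with OA to 12951 and 10204 against 16792 and 16885 CPM. ABCC3 was 66.3 and 107.9 CPM in controls and 76.7 and 79.5 CPM with OA. SLC51B was 22.9 and 23.4 CPM in controls, with exact Poisson 95% intervals of 10.5 to 43.5 and 7.61 to 54.7 (counting error only), and 30.5 and 17.5 CPM with OA. SLC51A was 35.7 (19.5 to 59.9) and 32.8 (13.2 to 67.6) CPM in controls and 61.0 and 68.0 CPM with OA. ABCC2 was at 17.2 and 11.7 CPM with OA there against 38.2 (21.4 to 63.0) and 28.1 (10.3 to 61.2) CPM in controls. Both OA values lay below both control values and below the interval of control 1, but within that of control 2, which rests on 8 cells. A fall was not tested, and the whole-library rise was not seen there. FABP6 did differ, with 12.7 CPM (4.14 to 29.7) and 0 UMIs in the 2 sets of control cells and 1555 and 101 CPM with OA. ABCB11 and SLC10A2 had 2 and 1 UMIs in control cells of cluster 15, too few to compare. No test was made within the cluster, since 1 control library gave 8 cells.

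FABP6 was concentrated in few cells. In OA replicate 1 the 10 cells with the most FABP6 UMIs held 35.6% of all of them, and 1 cell alone held 4640. In OA replicate 2 the first 10 cells held 49.8% and the highest cell 437 UMIs. For SLC51A the first 10 cells held 6.6% and 9.0%, and no cell held more than 31 UMIs. In OA controls, with far fewer FABP6 UMIs, the first 10 cells held 72.4% and 81.1%, and 1 cell held 43 of 123 UMIs in replicate 1 and 1 cell 51 of 95 in replicate 2. Both of those cells lay in cluster 11, as did 1 cell with 67 of the 83 FABP6 UMIs of untreated replicate 2. In OA replicate 2 a further 10.2% of FABP6 UMIs lay in cluster 16, also gut epithelial-like, where 38 of 40 cells had FABP6.

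FABP6 was found in 39.5% of cluster 15 cells in OA replicate 1 and in 16.9% in replicate 2, at median depths of 13576.5 and 12553.5 UMIs. In cluster 9, led by the squamous keratins KRT6A and KRT5, it was found in 10.1% of 169 cells and in 0 of 99, at median depths of 8053 and 6843 UMIs, given here as the background level of cells without enterocyte markers among their leading genes. After thinning each cell to 2000 UMIs, which left out 217 and 194 shallower cells of cluster 15 and 17 and 15 of cluster 9, the shares were 17.8% and 6.16% in cluster 15 and 2.63% and 0% in cluster 9.

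**Figure D4:**
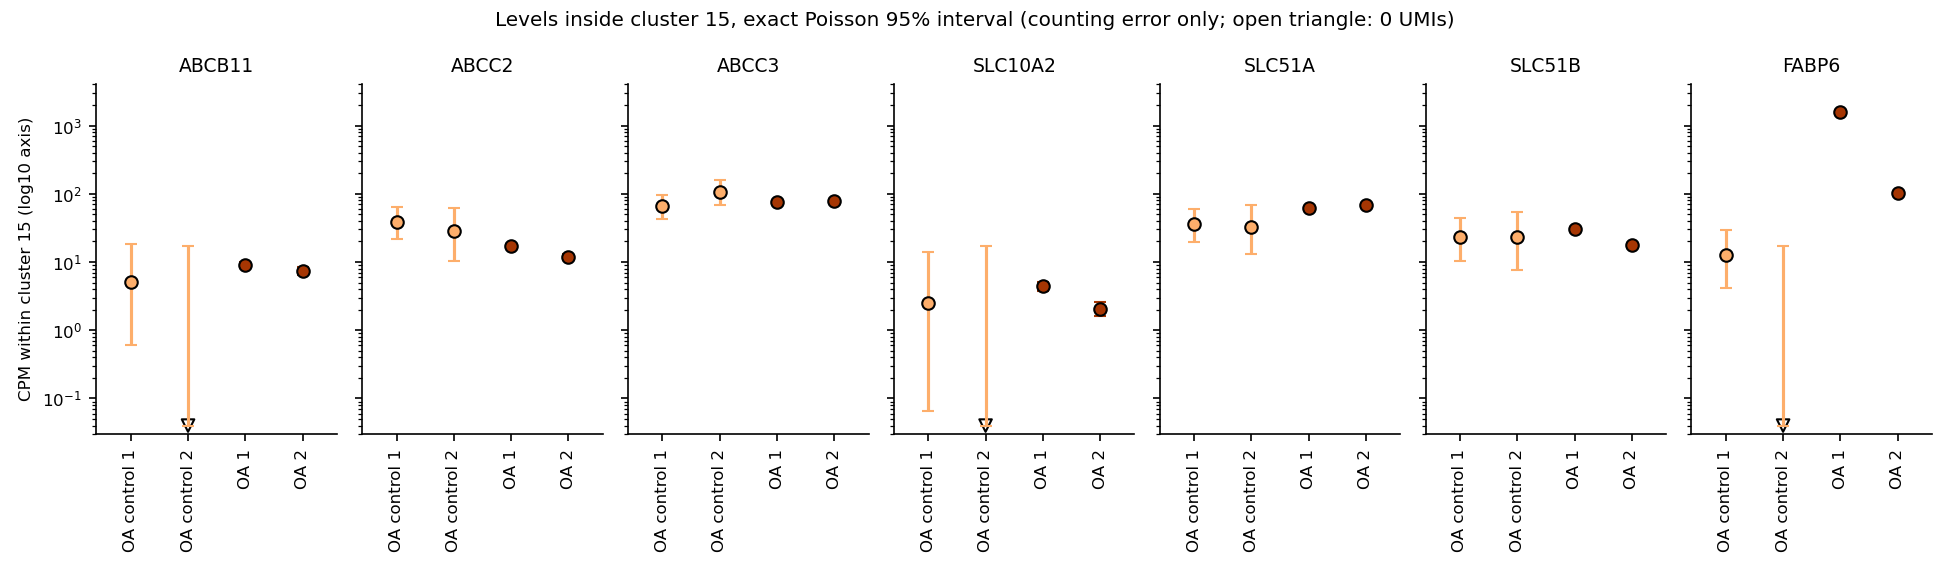
CPM of 7 members within cluster 15 of the OA experiment on a log10 axis, with exact Poisson 95% intervals that cover counting error only and open triangles for 0 UMIs. FABP6 is at 12.7 CPM and 0 UMIs in control cells and at 1555 and 101 CPM with OA, while ABCC3 and SLC51B intervals of control cells include or adjoin the OA values.

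Other genes of the pathway were taken from a list of 31 in 4 roles. With OA 11 of the 25 tested were called higher and 3 lower, with a median log2 fold change of 0.72, where 21.7% of all genes tested were called higher and 21.6% lower. The receptor gene NR1H4 went from 12.5 and 7.27 CPM to 70.2 and 48.9 CPM (log2 fold change 2.91 ± 0.35, SE; adjusted p = 3.8e-05, edgeR). NR0B2, the FXR-induced repressor, went from 10.1 and 9.22 CPM to 39.6 and 45.8 CPM (2.47 ± 0.31, SE; adjusted p = 5.49e-05, edgeR). In both genes every OA library lay above every control. NR1I2, a xenobiotic receptor, rose by a log2 fold change of 2.47. The membrane bile acid receptor GPBAR1 fell by 2.87 on the log2 scale.

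Among synthesis genes, AKR1D1 (2.50), BAAT (2.13), which joins bile acids to amino acids, and AMACR rose by log2 fold change, while SLC27A5, which activates bile acids for that step, fell by 1.22 on the log2 scale. CYP7A1, the rate-limiting enzyme of the classical route, had 0 UMIs in the OA controls and 3 with OA and was not tested. Of the other transporters, ATP8B1 rose by a log2 fold change of 2.11 and ABCC4 fell by 2.05 on the log2 scale. Other FXR targets that rose over the OA controls were APOC2 (5.39), KNG1 (2.46) and SULT2A1 (2.41). For SULT2A1 the 2 OA libraries were far apart, at 0.670 and 3.37 CPM. The lower of them was close to the higher control, at 0.645 CPM, so this rise rests largely on 1 library. Untreated OS organoids had mean levels of 1.205 CPM for KNG1 and 4.32 CPM for SULT2A1, beside 1.02 and 2.02 CPM with OA. AMACR libraries also overlapped between untreated and OA, while APOC2 was at 2.14 CPM in untreated organoids and 30.15 CPM with OA. FGFR4 and KLB, the receptor pair for FGF19, did not pass, with FGFR4 at 25.9 ± 0.0981 CPM in controls and 13.2 ± 2.25 CPM with OA (SD, n = 2; adjusted p = 0.0694, edgeR) and KLB at 19 and 21 UMIs over the 2 libraries of each group.

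**Figure D5:**
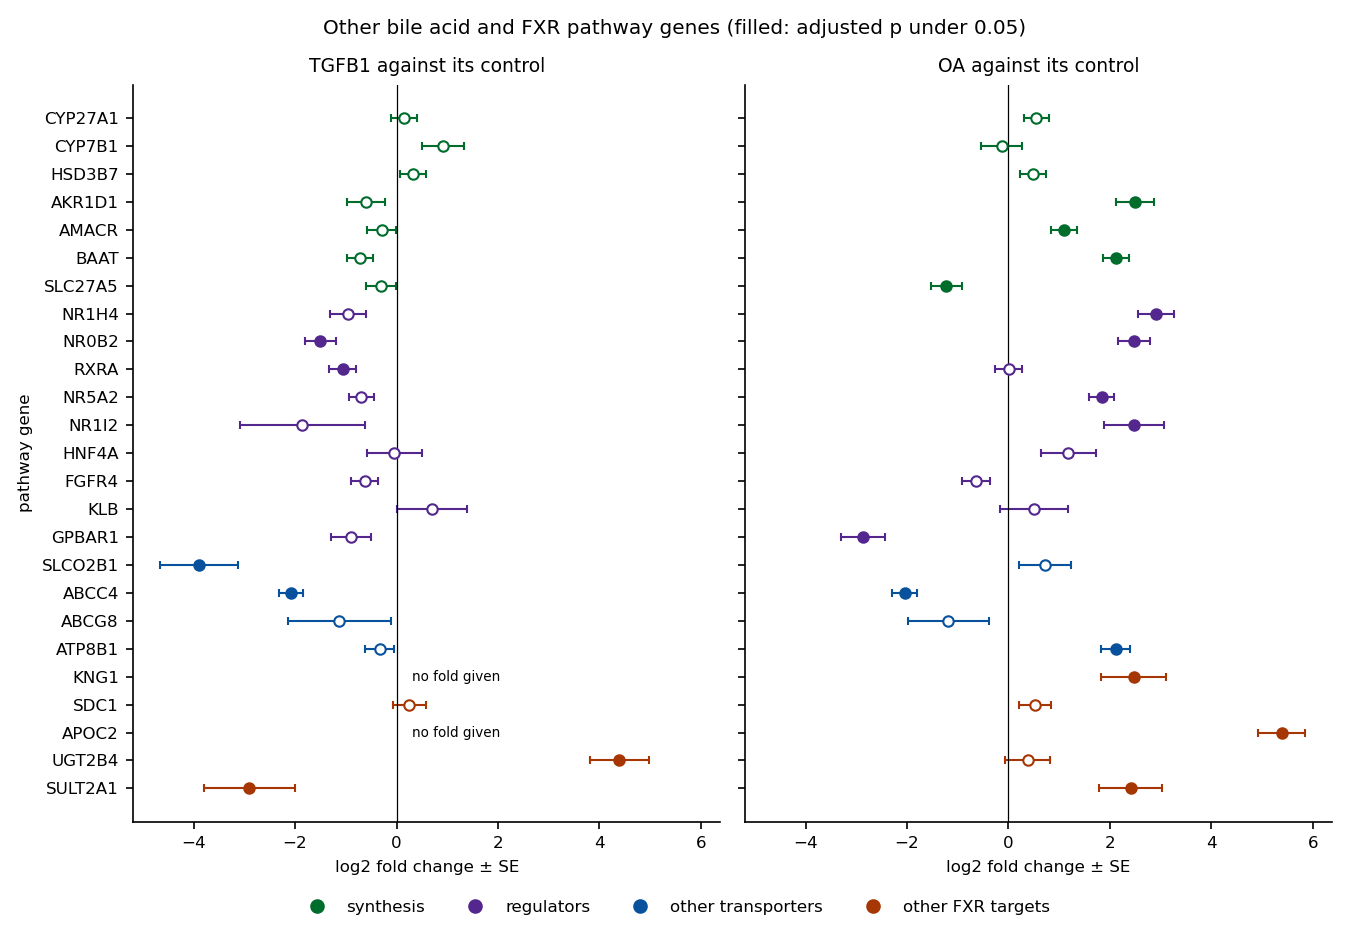
Fitted log2 fold change ± SE of the tested pathway genes for TGFB1 (left, 23 genes, without KNG1 and APOC2, which have a group at 0) and OA (right, 25 genes), coloured by role, with filled points for adjusted p under 0.05. NR1H4 and NR0B2 lie above 0 with OA, at 2.91 and 2.47, and NR0B2 is called below 0 with TGFB1, while ABCC4 is called lower in both.

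With PA, none of the 9 tested members was called (edgeR), and 0.0465% of all genes tested were. DESeq2 also called 0, and 1 member, FABP6, had an unadjusted p under 0.05. FABP6 had 2 and 8 UMIs in PA controls and 9 and 300 with PA, so PA replicate 2 held most of them (0.291 and 0.177 against 0.378 and 5.15 CPM). The log2 fold change was 4.01 ± 1.83 (SE; adjusted p = 1, edgeR) and 1.04 without PA replicate 2. Of these 300 UMIs, 1 cell held 91 and 10 cells held 89.3%. PA cluster 2 held 95% of them, in 26 of its 1511 cells. It was named gut epithelial-like from 5 gut markers among its 50 leading genes, but it also had 4 hepatocyte markers there and held 85.1% of the ALB UMIs of that library, so it is not a gut cluster alone. SLC51A was 1.16 and 0.971 CPM in PA controls and 1.85 and 1.85 CPM with PA, groups that did not overlap, with a log2 fold change of 0.94 ± 0.80 (SE; adjusted p = 1, edgeR). Of 25 tested pathway genes, 0 were called by edgeR and 0 had an unadjusted p under 0.05.

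Between OA control and untreated OS organoids, 0 of the 9 tested members were called (edgeR; DESeq2 called 0 as well, and 1 had an unadjusted p under 0.05), and 0.573% of all genes tested were called, 0.0826% higher and 0.491% lower. That member was ABCC2, at 4.25 and 7.39 CPM in untreated organoids and 2.72 and 1.92 CPM in OA controls, with a log2 fold change of -1.17 ± 0.37 (SE; adjusted p = 0.168, edgeR). The 2 untreated libraries stood apart from each other in SLC51A (1.59 and 11.5 CPM) and FABP6 (0.23 and 2.80 CPM). Without untreated replicate 2, SLC51A was called higher in OA controls, with a log2 fold change of 1.94 (adjusted p = 0.044). The 0 called members are not evidence that the levels were equal. Of the 5 tested other FXR targets, 0 were called and 4 had an unadjusted p under 0.05 (edgeR), beside 2822 of 19366 genes tested. Their median log2 fold change was -1.14, with 4 values below 0 and 1 above, but a difference in these targets is not shown, since 0 passed.

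TGFB1 lowered 2 of the 9 tested members, SLC51B and FGF19, both ileal, where 22.2% of all genes tested were called and 11.3% called lower, so the share of members called is that of all genes and is no result about the members as a group. FGF19 had 8 and 18 UMIs in TGFB1 controls and 4 and 2 with TGFB1, or 0.506 and 0.344 against 0.0908 and 0.051 CPM. The groups did not overlap, and the log2 fold change was -2.26 ± 0.58 (SE; adjusted p = 0.0147, edgeR). SLC51B had 1 and 34 UMIs in controls and 2 and 1 with TGFB1, a ratio of 0.0701 (0.0138 to 0.222, counting interval; adjusted p = 0.0444, edgeR). TGFB1 control replicate 2 held 34 of the 35 control UMIs, and without it the log2 fold change was -0.47 (adjusted p = 0.904). SLC51B also missed the threshold without either TGFB1 library (0.175 and 0.176). FGF19 missed the threshold without TGFB1 control replicate 1 (adjusted p = 0.059) and without TGFB1 replicates 1 and 2 in turn (0.0688 and 0.119), and both genes missed it under a stricter cell filter (0.0786 for FGF19 and 0.0508 for SLC51B).

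Of the other 7 members in the fit, SLC10A2 had 0 UMIs in all 4 libraries and nothing to test, and 6 did not pass with TGFB1. ABCC2 was at 0.253 and 0.191 CPM in controls and 0.0681 and 0.0765 CPM with TGFB1 (log2 fold change -1.34 ± 0.75, SE; adjusted p = 0.221, edgeR), groups that did not overlap at 3 to 10 UMIs each. ABCC3 was at 31.7 and 35.3 CPM in controls and 20.6 and 21.2 CPM with TGFB1 (-0.49 ± 0.36, SE; adjusted p = 0.341, edgeR). The median over the 4 tested hepatic members was -0.043 and over 4 ileal members -1.78, beside -0.0456 over all genes. By total counts the split of genes called higher and lower moved from 2104 and 2191 to 1415 and 3065. Gut epithelial markers summed to 278 to 279 CPM in controls and 93.0 to 104 CPM with TGFB1, with ALPI at 0 in the TGFB1 libraries, and mesenchymal markers to 743 to 838 and 2542 to 2705 CPM. The 6 cycling markers summed to 347 to 496 CPM in controls and 34.2 to 36.7 CPM with TGFB1. The 5 immune markers summed to 199 to 228 and 32.7 to 44.2 CPM, with CD14 at 0 with TGFB1. That list holds LYZ, also a leading gene of hepatocyte-like and gut epithelial-like ULA clusters, so its sum does not measure immune cells alone. The 2 control libraries stood apart in their clusters and in depth, with medians of 1310 and 5635 UMIs per cell. Of control 1, 7678 cells (79.9%) lay in unnamed cluster 0, led by RPL36A, RPS10 and RPS21. That cluster had 7940 cells over all 4 libraries. The part of depth in the cluster counts below was not tested. Cluster 1, with 6 gut epithelial and 3 hepatocyte markers among its leading genes and left unnamed, had 65 and 894 cells in controls 1 and 2 and held 88.2% of the SLC51B UMIs of control 2. Cluster 2, also unnamed, had 269 and 5753 cells. In control 2 it held 83.3% of the FGF19 UMIs (15 UMIs in 6 cells), beside 63.8% of all UMIs. It held 0 of the FGF19 UMIs of control 1. In TGFB1 replicates 1 and 2, cluster 1 had 34 and 39 cells and cluster 2 had 80 and 90. The part of markers and clusters in the lower SLC51B and FGF19 was not tested.

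Of the pathway genes, 1 of 25 tested rose with TGFB1 and 5 fell, where 10.9% of all genes tested were called higher and 11.3% lower, so the share called was near that of all genes. NR0B2 went from 20.3 and 39.8 CPM to 8.04 and 11.1 CPM (log2 fold change -1.50 ± 0.31, SE; adjusted p = 0.00407, edgeR), and RXRA, the partner of FXR on DNA, fell by 1.06 on the log2 scale. NR1H4 went from 6.70 and 6.45 CPM to 2.73 and 3.24 CPM without passing (adjusted p = 0.072, edgeR). The transporters SLCO2B1 and ABCC4 fell by 3.90 and 2.08 on the log2 scale. UGT2B4, which conjugates bile acids, rose by a log2 fold change of 4.39, from 1 and 11 UMIs to 141 and 127, and SULT2A1 fell by 2.90 on the log2 scale.

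Between ULA day 21 and day 34, 4 of the 5 ileal members and 0 of the 4 tested hepatic members were called, all lower on day 34, where 15.6% of all genes tested were called, 8.43% higher and 7.19% lower (edgeR, 22261 genes). SLC51B and FABP6 passed the filter on low counts only with the day 21 libraries, where they are high. Their part in this count and in the ileal median was set by those levels, and their p-values are no support of their own. SLC51A went from 16.2, 13.8 and 15.1 CPM to 0.334 and 0.395 CPM, a log2 fold change of -5.49 ± 0.24 (SE; adjusted p = 2.17e-04, edgeR). SLC51B went from 7.58, 6.01 and 8.46 CPM to 0.0129 and 0.285 CPM, a log2 fold change of -5.69 ± 0.81 (SE; adjusted p = 0.0063, edgeR). Both subunits were thus far lower in each day 34 library than in any day 21 library.

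FGF19 went from 1.94, 2.78 and 1.38 CPM to 0.206 and 0.230 CPM (log2 fold change -3.34 ± 0.43, SE; adjusted p = 0.0045, edgeR). FABP6 had 22 to 36 UMIs on day 21 and 9 and 7 on day 34 (-2.06 ± 0.50, SE; adjusted p = 0.0335, edgeR). FABP6 missed the threshold without any 1 of the day 21 libraries (adjusted p = 0.0804 to 0.0974), and SLC51B without day 21 replicate 3 (0.0551). SLC10A2 was at 4 to 18 UMIs on day 21 and 4 and 24 on day 34 (0.03 ± 0.74, SE; adjusted p = 0.983, edgeR), groups that overlapped.

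Of the hepatic members, ABCC3 was at 1.44 and 5.55 CPM on day 34 against 12.6, 6.43 and 11.7 CPM on day 21 (log2 fold change -1.67 ± 0.56, SE; adjusted p = 0.0876, edgeR), and DESeq2 called it (adjusted p = 0.0128). It passed in edgeR as well without either day 34 library, with adjusted p = 0.048 without replicate 1 and 1.01e-04 without replicate 2. ABCB11 and ABCB4 had log2 fold changes of 0.36 ± 0.40 and 0.55 ± 0.34 (SE), and ABCC2 one of -0.81 ± 0.41 (SE), none of them called. The median was -0.228 over the 4 tested hepatic members and -3.34 over the 5 ileal members, beside 0.0128 over all genes tested. Scaling by total counts moved that last median to 0.142 and the split of higher and lower genes from 1876 and 1600 to 2596 and 1304, with 4 members called.

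On day 21 the exporter transcripts lay almost wholly in ULA cluster 5, gut epithelial-like, with 8 gut epithelial and 4 hepatocyte markers among its 50 leading genes. In day 21 replicates 1 to 3 it held 95.8%, 91.8% and 95.4% of SLC51A UMIs and 95.8%, 94.1% and 96.3% of SLC51B UMIs, from 739, 364 and 727 cells. ABCC3 had 89.4%, 80.6% and 91.3% there. On day 34 the cluster had 6 and 84 cells. Within it, SLC51A was 62.5, 80.7 and 55.3 CPM on day 21 and 11.5 CPM (5.73 to 20.6, exact Poisson 95% interval) in day 34 replicate 2, and SLC51B 29.2, 36.0 and 31.2 CPM against 19.8 CPM (11.9 to 31.0). ABCC3 was 45.4, 33.0 and 40.9 CPM within it on day 21 and 73.1 CPM in day 34 replicate 2.

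For FGF19, cluster 5 held 21.1%, 5.29% and 15.9% of its day 21 UMIs, below that cluster's 24.9%, 15.7% and 26.1% of all UMIs. Most FGF19 UMIs of a single cluster were in mesenchymal-like cluster 0 in replicates 1 and 2, with 40.9% and 49.7% against 9.96% and 17.3% of all UMIs, and in cluster 2 in replicate 3, with 31.9% against 12.3%. Over whole libraries gut epithelial markers summed to 231 to 441 CPM on day 21 and 5.42 to 51.3 CPM on day 34, with ALPI at 0, hepatocyte markers to 1295 to 1625 and 65.8 to 634 CPM, and squamous markers to 8.45 to 14 and 303 to 1481 CPM. Mesenchymal markers summed to 2089 to 2595 CPM on day 21 and 2733 to 4576 CPM on day 34. Immune markers, a list with LYZ, which was also among the leading genes of cluster 5, summed to 85.9 to 163 and 2.40 to 35.5 CPM. Pluripotent markers summed to 26.0 to 49.8 and 2.92 to 3.54 CPM. Per the labels' protocol, day 34 organoids also had a further wash and 10 minutes of trypsin beyond the first 10, so these and the day cannot be told apart.

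Of the pathway genes, 2 of 23 tested rose on day 34 and 7 fell, where 8.43% of all genes tested were called higher and 7.19% lower. HNF4A, a hepatic and gut nuclear receptor, fell by 3.56 on the log2 scale, NR1I2 by 4.03 and FGFR4 by 2.37. NR1H4 went from 4.81, 2.67 and 5.38 CPM to 0.0514 and 1.35 CPM (log2 fold change -2.72 ± 0.99, SE) without passing (adjusted p = 0.105, edgeR), and NR0B2 overlapped between the days. The transporter SLCO2B1 fell by 3.83 and the synthesis gene AKR1D1 by 3.76 on the log2 scale, while HSD3B7, another synthesis enzyme, rose by a log2 fold change of 1.86 and the FXR target SDC1 by 1.14. SULT2A1 fell by 2.59 on the log2 scale. NR1I2, AKR1D1 and SULT2A1 passed the filter on low counts only with the day 21 libraries, where they are high. Their part in the count of 7 was set by those levels, and their calls are no support of their own.

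OA, PA and TGFB1 each had controls of their own, so the difference between effects could be tested. No label gives the treatment time of OA, and its matrices carry another software version and gene list than those of PA and TGFB1. The part of these in the differences was not tested. The OA effect exceeded the PA effect for ABCB11 and ABCC2, 2 of 9 tested members, where 20.5% of all genes tested differed. Neither gene passed without PA control replicate 2 (adjusted p = 0.67 for ABCB11, where the difference was 1.58, and 0.0884 for ABCC2, edgeR), and ABCB11 also missed without OA replicate 1 (0.0674) and without PA replicate 2 (0.0578), as ABCC2 did under the stricter cell filter (0.052). For SLC51A and SLC51B the differences were 2.52 ± 1.01 and 3.35 ± 1.22 (SE) on the log2 scale and did not pass (adjusted p = 0.0953 and 0.0691, edgeR), and for FABP6 4.75 ± 2.89 (SE; adjusted p = 0.267, edgeR). The OA effect exceeded the TGFB1 effect for 6 of 9 tested members (ABCB11, ABCC2, ABCC3, SLC51A, SLC51B and FGF19), where 31.8% of all genes tested differed. Without TGFB1 control replicate 2 only ABCC2 and FGF19 passed, without OA control replicate 2 only ABCC2, SLC51A and SLC51B, and without TGFB1 replicate 1 only ABCC2, SLC51B and FGF19. SLC10A2 was at 0 in the TGFB1 groups and the PA control, and no difference of effects is given for it.

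Across the 14 OS libraries, genes were ranked by the Pearson correlation of their log2(CPM + 1) levels with each member, as a description that rests largely on the contrast of the 2 OA libraries with the rest. FABP6 was most like ADTRP (r = 0.977), SLC10A2 (0.976) and NOS2 (0.975). SLC10A2 was most like CLCA4, NOS2 and SULT1C3 (0.989 to 0.993), ABCB11 like CASP5, MBL2 and LGALS9B (0.979 to 0.987), and ABCC2 like SYTL2, LY75 and ENTPD7 (0.982 to 0.984). SLC51A was most like GPA33, GDPD2 and IL22RA1 (0.985 to 0.988), and SLC51B like DKK4, CAPN3 and TMEM220 (0.985 to 0.987). ABCC3 was nearest to CA12, FA2H and SULT1A1 (0.947 to 0.969). FGF19 had other neighbours, ST8SIA3, ELOVL2 and FAM234B (0.931 to 0.945), and the highest r for ABCB4 was 0.757.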

How the data were processed

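The authors deposited unnormalised UMI counts of genes in cells for 19 libraries. Cell Ranger 3.0.2, bcl2fastq, Scanpy and GRCh38 are named in the submitters' processing notes, and the headers of the OA and untreated matrices give software version 6.0.2. Barcodes under 500 genes or over 20% mitochondrial counts were left out, no doublets were removed, and counts were summed per library. Genes were tested with edgeR 4.0.16 (quasi-likelihood, TMM, filterByExpr) in 1 fit of the 14 OS libraries and 1 of the 5 ULA libraries, at a Benjamini-Hochberg adjusted p of 0.05. SE is the absolute log2 fold change divided by the square root of F. Members, pathway genes and markers were chosen with earlier results of these data known. All 10 members are described. Of 31 pathway genes, NR1H4, NR0B2, FGFR4, KLB and CYP7A1 are all named for OA, and only some of them in other comparisons. The other pathway genes named are among those called, and not every called gene is named. Cells were clustered per experiment with scanpy 1.11.5 (2000 variable genes, 30 components, 15 neighbours, resolution 0.5) without members, pathway, mitochondrial and ribosomal genes. Intervals cover counting error at 95%. Alternatives were DESeq2 1.42.0, total counts, no low-count filter, a stricter cell filter (1000 genes, 10% mitochondrial), doublet removal, only the 2 groups compared, a replicate block, leaving out each library, leaving out mesenchymal-like clusters, and, chosen after seeing the data, keeping only clusters with under 2000 CPM of mesenchymal markers. The fits were tested on simulated data.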

Additional observations from a re-analysis of the deposited data

Results flagged for a closer look

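For 8 results the difference between 2 treatment effects, each against its own controls, passed the test (edgeR quasi-likelihood, adjusted p over all genes; 2 libraries in each of the 4 groups). OA against PA gave a log2 difference of 3.17 ± 0.84 (SE; adjusted p = 0.0176) for ABCB11, the bile salt export pump, and 3.41 ± 0.73 (SE; adjusted p = 0.00593) for ABCC2, 2 of 9 tested members where 20.5% of all genes tested were called, a share near that background. Neither passed without PA control replicate 2 (adjusted p = 0.67 and 0.0884).

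OA against TGFB1 gave 3.27 ± 1.06 (SE; adjusted p = 0.031) for ABCB11, 4.06 ± 0.83 (SE; adjusted p = 0.00243) for ABCC2 and 1.72 ± 0.50 (SE; adjusted p = 0.0192) for ABCC3. Among ileal members it gave 3.73 ± 1.03 (SE; adjusted p = 0.0141) for SLC51A, 7.58 ± 1.18 (SE; adjusted p = 0.000349) for SLC51B and 2.87 ± 0.83 (SE; adjusted p = 0.0183) for FGF19, where 31.8% of all genes tested were called. Without TGFB1 control replicate 2, SLC51B (4.65, adjusted p = 0.278), ABCB11 (0.23), ABCC3 (0.055) and SLC51A (0.307) no longer passed. ABCB11, ABCC3 and FGF19 were lost without OA control replicate 2 (0.0532, 0.0876 and 0.064), and ABCB11, ABCC3 and SLC51A without TGFB1 replicate 1 (0.103, 0.0623 and 0.057). The OA matrices carry another software version and gene list than those of PA and of TGFB1, and no label gives the OA treatment time. Their part in the differences from PA and from TGFB1 was not tested.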

How the results depend on the processing

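With OA, 7 members were called in the main analysis and 6 to 7 when each library was left out in turn, so that comparison moved least among those with calls. For TGFB1, 2 members were called, 1 with only the 2 groups compared, 0 under the stricter cell filter and 0 to 1 without single libraries. For PA the count was 0, 1 (FABP6) with no filter on low counts, and 0 in every analysis that left out a library. OA control against untreated OS went from 0 to 1 (ABCC2) with no filter and to 1 (SLC51A) without OS untreated replicate 2. For ULA day 34 against day 21 the main count was 4, with a range of 2 to 6 when libraries were left out and the lowest without day 21 replicate 3. For the OA effect against the PA effect it was 2, 6 with no filter, 1 under the stricter filter and 0 to 3 without single libraries, with 0 without PA control replicate 2 and 1 without OA replicate 1 or PA replicate 2. For the OA effect against the TGFB1 effect it was 6, and 2 to 7 without single libraries, with 2 without TGFB1 control replicate 2 and 3 without OA control replicate 2 or TGFB1 replicate 1. Where a group is left with 1 library, the fit assumes that it varies like the others. The cause of these changes was not tested. By total counts, genes called higher and lower moved from 1969 and 2002 to 1242 and 2715 for OA against PA, and from 3175 and 2989 to 2542 and 3329 for OA against TGFB1.

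Replicate numbers were shared between groups, but same-numbered libraries did not deviate together: the correlations of their deviations were -0.222 for TGFB1, 0.089 for PA, 0.041 for OA with its control, -0.44 for OA control with untreated, and -0.165 and -0.269 for ULA. The numbers were therefore not taken as pairs. With the replicate block the members called were 1 for TGFB1, 0 for ULA, where the block took the calls over all genes from 3476 to 0, and 3 for the OA effect against the TGFB1 effect, and the other counts stayed within 1.5 times of the main one.

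Direction changed in 34 single-gene values, of members that were not called in the main analysis. In what follows a range runs over the analyses that left out a library. With TGFB1, ABCB11 ranged from -0.75 (without TGFB1 replicate 2) to 1.09, ABCB4 from -0.17 (without TGFB1 replicate 1) to 0.99, and SLC51A from -0.68 to 0.91 (without TGFB1 control replicate 2), and ABCB4 was -0.014 without mesenchymal-like clusters. With PA, ABCB11 was -0.068 and ABCC2 0.096 under the stricter filter. ABCB4 was 0.034 in DESeq2, 0.097 in clusters low in mesenchymal markers, 0.019 with doublets removed, 0.091 under the stricter filter, 0.11 without mesenchymal-like clusters, and ranged from -1.11 to 0.77, with 0.67 without PA replicate 2 and the highest without PA control replicate 2. ABCC3 was -0.021 in clusters low in mesenchymal markers, -0.023 by total counts, -0.033 without mesenchymal-like clusters, and ranged from -0.098 to 0.18, with -0.094 without PA replicate 2. For OA control against untreated, the ranges were -2.67 to 3.45 for SLC10A2, -1.001 to 0.81 for ABCB11, -1.05 to 1.94 for SLC51A, -1.36 to 0.15 for SLC51B, -0.39 to 3.33 for FABP6 and -0.42 to 0.94 for ABCC3, with 1 end without untreated replicate 1 and the other without untreated replicate 2. ABCB11 was 0.0019 under the stricter filter, SLC51A 0.11 with the replicate block and 0.053 without OA control replicate 2, and ABCC3 -0.029 by total counts and -0.34 without OA control replicate 1. On ULA day 34, SLC10A2 ranged from -1.61 (without day 34 replicate 2) to 0.74, with -0.31 without day 21 replicate 2, and was -0.15 without mesenchymal-like clusters. For OA against TGFB1, ABCB4 ranged from -0.24 (without OA replicate 2) to 1.12, with -0.039 without TGFB1 replicate 2. Depth limits SLC10A1, with 0 to 2 UMIs in each library, and other members where a group holds few UMIs.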
